A study of Mus musculus with 6 samples.

Results

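Mitochondrial ribosomal protein genes were taken as all genes of the count table whose symbol begins with Mrpl or Mrps followed by a digit. These were 78 of the 11922 genes counted, 49 named for the large subunit (Mrpl) and 29 for the small subunit (Mrps). Of these 78 genes, 51 were higher and 1 was lower in mouse CD8+ T cells treated with aminoxyacetic acid (AOA) than in cells treated with vehicle, and 26 did not pass the test. The members called made up 66.7%, where 53.0% of all tested genes were called, 26.2% as higher and 26.8% as lower. The median gene of the set was 1.61-fold higher with AOA.

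RNA was sequenced from bulk cultures of CD8+ T cells isolated magnetically from the spleens of C57BL6/J mice. All cultures were activated with beads carrying anti-CD3 and anti-CD28 antibodies for 72 hours and expanded for 4 more days, with recombinant human IL-2 at 100 units/ml throughout. The vehicle group received water for 7 days and the AOA group received 0.25 mM AOA, an inhibitor of enzymes that use pyridoxal phosphate (vitamin B6) as cofactor, so that AOA was present from activation onwards. Each of 3 mice contributed a culture to either treatment, with 1 library per mouse and treatment. The study's mice were of both sexes and older than 6 weeks; no exact ages were found for these donors.

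The mitochondrial ribosome, or mitoribosome, is a separate ribosome inside mitochondria. It translates the handful of proteins encoded by mitochondrial DNA, which are core subunits of the respiratory chain and of ATP synthase. Its RNA comes from mitochondrial DNA, whereas its proteins are encoded in the nucleus, made in the cytosol and imported. The small subunit decodes the messenger RNA, and the large subunit forms the peptide bond and releases the new chain at the inner membrane. Activated T cells enlarge their mitochondrial mass and respiratory machinery before they divide.

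Library totals ran from 12881962 to 18934869 counts with vehicle and from 18696114 to 21997078 with AOA. No member fell below 63 counts in any library, and all 78 passed the low-count filter. The library of mouse 1 with AOA stood apart: its short genes were read higher and its long genes lower than in the other libraries. Its levels lay 0.41 (log2) above the mean of the 6 libraries along the trend with length at 500 bases and 0.29 below it at 8000 bases, against -0.15 and -0.12 at 500 bases for mice 2 and 3 with AOA. The members are short, their deposited lengths having a median of 1066 bases where that of all tested genes is 2900, so results are given below with and without that library. The vehicle library of mouse 2 also differed from the others of its group, with a chi-square per gene of 55.2 and 59.9 against vehicle mice 1 and 3, which differed by 10 from each other. For AOA mouse 1 these values were 70.8 and 64.2 against mice 2 and 3, which differed by 10.5.

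Cell type markers also differed between the groups. Summed levels of 6 CD8 T cell markers were 3304 to 4213 CPM, which are read counts scaled to the size of each library, with vehicle and 4251 to 4984 with AOA. Cd8a and Cd8b1 rose, Cd2 fell and 3 were not called. The log2 fold change was below 0 in 4 of the 6, with a median of -0.20, so the markers did not rise as a set. The 4 CD4 T cell markers summed to 158 to 211 CPM with vehicle and 33.0 to 54.3 with AOA, and 3 of them fell. The 4 myeloid markers measured summed to 44.4 to 64.4 CPM with vehicle and 0.965 to 4.18 with AOA, where Cd14 was at 0 in mice 1 and 3; both tested ones fell. Lyz2 was at 0 in vehicle mice 1 and 3. The 2 NK cell markers measured summed to 20.1 to 114 CPM and 3.53 to 11.6 CPM, with Ncr1 at 0 in vehicle mice 1 and 3 and the only tested marker, Klrb1c, lower. The 5 B cell markers measured summed to 13.9 to 18.4 CPM and 23.1 to 30.9 CPM. Of these, Cd79b was called higher (mean 11.7 CPM with vehicle and 23.7 CPM with AOA) and Cd22 lower. The log2 fold change was below 0 in 3 of the 5, with a median of -0.50. Erythroid markers were not analysed here. The part of these other cells in the results below was not tested. In bulk RNA, fewer cells of a type and less RNA per cell cannot be told apart.

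The members are spread over 17 chromosomes, with at most 11 on any of them (chromosome 11). Promoters were available for 69 of the 78 in the RefSeq table (GRCm38.p6), as windows from 250 bases before to 50 bases after the start. These windows were searched on both strands for short motifs of transcription factors known to act on nuclear genes for mitochondrial proteins. The ETS motif (letters CCGGAAG, the core bound by GABPA) was present in 37.7% of member windows, 21.4% of windows of other tested genes and 9.93% of all windows in the table. The NRF1 motif (GCGCATGC) was present in 11.6%, 6.21% and 3.05% of these windows, and the YY1 motif (AANATGGCG) in 15.9%, 6.18% and 2.76%. At least 1 of these motifs was found in 53.6% of member windows, 30.4% of those of other tested genes and 14.4% of all.

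Any of the 3 was found in 50% of the 46 windows of members called higher and in 59.1% of the 22 of members not called. For single motifs these shares were 34.8% and 45.5% (ETS), 8.70% and 13.6% (NRF1) and 19.6% and 9.09% (YY1), and the differences were not tested. The E-box (CACGTG) was in 7.25% of member windows (10.9% of those called higher and 0% of those not called) against 11.9% of those of other tested genes, and the TATA motif (TATAAA) in 7.25% against 8.14%. A match is a description of the letters and no evidence of binding.

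Upstream stretches are shown for Mrps22 and Mrpl17, which were among the members with the largest rises, and for Mrpl32, which carries the most NRF1 matches of the stretches examined and was not called. Each runs 5′ to 3′ on the strand of the gene and ends at the base before the start, and capitals mark matches to the ETS or NRF1 motif. They are chr9:98601680-98601829 (minus strand), chr7:105811088-105811237 (minus strand) and chr13:14613038-14613187 (minus strand) of GRCm38.p6.
Mrps22: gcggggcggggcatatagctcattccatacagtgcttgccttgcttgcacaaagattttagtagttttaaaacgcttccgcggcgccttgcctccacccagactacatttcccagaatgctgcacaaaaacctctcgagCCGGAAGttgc
Mrpl17: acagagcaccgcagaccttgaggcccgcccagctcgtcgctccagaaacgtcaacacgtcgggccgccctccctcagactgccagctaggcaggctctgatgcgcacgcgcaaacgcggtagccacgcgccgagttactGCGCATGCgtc
Mrpl32: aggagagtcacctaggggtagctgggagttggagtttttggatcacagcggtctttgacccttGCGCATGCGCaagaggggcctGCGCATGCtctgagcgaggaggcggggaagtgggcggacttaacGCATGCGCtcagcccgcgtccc

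The ETS match of Mrps22 begins 11 bases before its start and the NRF1 match of Mrpl17 also begins 11 bases before. Mrpl32 holds 4 NRF1 matches, of which a pair overlaps on opposite strands. An overlapping pair of NRF1 matches also stands before Mrpl39, which was called higher (log2 0.42, called in 13 of 15 alternative fits). Another stands before the RefSeq start used for Mrpl9, the only member that fell, at chr3:94443298-94443327 (plus strand). The annotated span of the gene begins further upstream and includes this site, and only 30 bases around the match are shown.
Mrpl9: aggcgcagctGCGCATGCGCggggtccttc

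Many members share their promoter region with a gene on the other strand. Of the 69 members with a promoter, 24 (34.8%) had a coding gene starting in the opposite direction within 1000 bases upstream, against 13.9% of 9010 other tested coding genes. Among the 24 partners, of which 2 are themselves members, 12 were higher with AOA (50%, against 26.2% of all tested genes), 5 were lower and 7 were not called. Their median log2 fold change was 0.46, against 0.83 for the members beside them.

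A large and a small subunit gene form a pair of this kind. Mrps11 and Mrpl46 start 42 bases apart on chromosome 7 and run in opposite directions. The 41 bases between their starts, chr7:78783090-78783130, shown on the plus strand, hold 73.2% G or C and none of the motifs above.
Mrps11 and Mrpl46: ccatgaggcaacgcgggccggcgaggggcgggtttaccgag

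Both rose with AOA. The log2 fold change was 1.08 ± 0.17 (SE, n = 3 per group) for Mrpl46 and 0.58 ± 0.18 for Mrps11, whose call was lost without the AOA or the vehicle library of mouse 1. Other pairs, picked here after their values were seen, moved together or apart. Mrpl18, the counterpart of bacterial L18, rose by 1.17 (log2) and its neighbor Tcp1, a subunit of the cytosolic chaperonin, by 1.201. Mrps12 and its neighbor Sars2, the mitochondrial seryl-tRNA synthetase, had values of 0.69 and 0.86, and both passed the test. In contrast, Mrpl2 rose by 0.60 while its neighbor Klc4, a kinesin light chain, had a value of -2.15, and Mrpl32 was at -0.32 (not called) beside Psma2, a proteasome subunit that rose by 1.05. The annotated spans of Mrpl18 and Tcp1 overlap, as do those of Mrpl2 and Klc4, so reads may be shared within these pairs.

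To compare treated with untreated cells, edgeR's quasi-likelihood test was applied across all 11759 genes that passed the filter, with a Benjamini-Hochberg adjusted p under 0.05 as the threshold. Of the members, 65.4% were called higher and 1.28% lower, against the 26.2% and 26.8% of all tested genes given above. The median log2 fold change of the members was 0.69, and 1.01, 0.49 and 0.53 in mice 1, 2 and 3 (SD 0.29), against -0.02 for all tested genes. In 55 members every AOA library was above every vehicle library, in 1 every AOA library was below, and in 22 the groups overlapped. Groups were thus separate in 71.8% of members and in 62.1% of all tested genes.

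**Figure D1:**
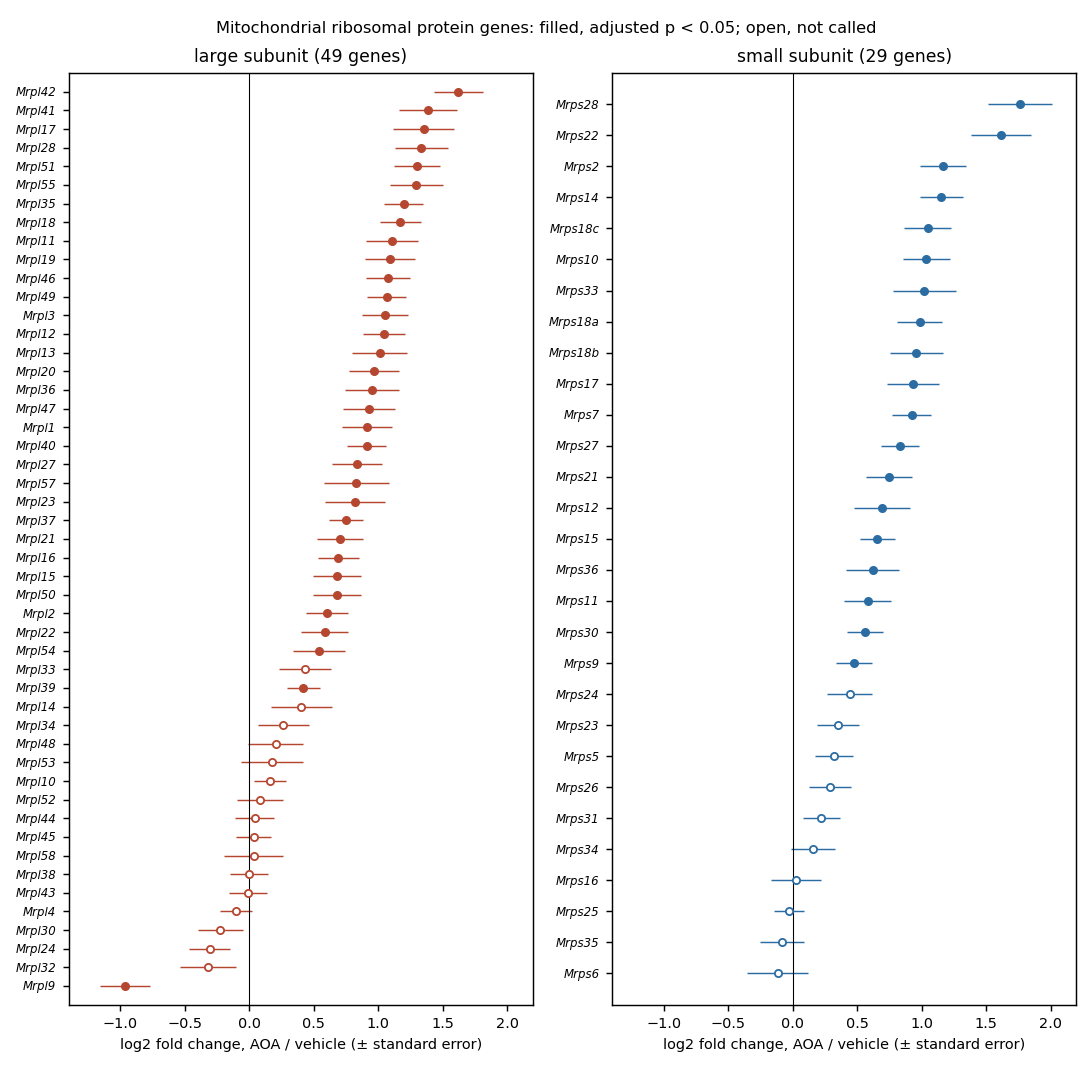
Log2 fold change (AOA / vehicle) of each mitochondrial ribosomal protein gene, with its standard error, for the 49 large-subunit genes on the left and the 29 small-subunit genes on the right. Filled points passed the test (adjusted p under 0.05) and open points did not; 51 filled points lie to the right of 0 and 1, Mrpl9, to the left.

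Without the AOA library of mouse 1, 47 members were called higher and 2 lower, against 50% of all tested genes called. The medians without it were 0.503 in the large and 0.475 in the small subunit, against 0.705 and 0.656 with all libraries. Of the 52 original calls 47 remained, those of Mrps11, Mrps12, Mrps36, Mrpl23 and Mrpl54 were lost, and Mrps5 (higher) and Mrpl24 (lower) were gained. That library was the highest of the AOA libraries in 72 of the 78 members. Without the vehicle library of mouse 2, 52 members were higher and 1 was lower, against 57.6% of all tested genes called, and the only change was that Mrps5 was gained. The medians were then 0.77 in the large and 0.73 in the small subunit. The rise was present in mice 2 and 3 too, with member medians of 0.49 and 0.53 against -0.003 and -0.03 for all tested genes. In 58 members the ratio was above 0 in all 3 mice and in 4 it was below 0 in all 3. The same was not counted over all tested genes.

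In the large subunit 32 of 49 genes rose, 1 fell and 16 did not pass the test, with a median log2 fold change of 0.71 (1.09, 0.49 and 0.54 in mice 1, 2 and 3, SD 0.33). Mrpl42, a large-subunit protein with no bacterial counterpart, had the largest change. Its level was 21.0, 28.0 and 20.8 CPM in the vehicle libraries of mice 1, 2 and 3 and 88.1, 63.4 and 63.1 CPM in the AOA libraries. All AOA libraries were more than 2-fold above all vehicle libraries. The rise was 3.08-fold (log2 1.62 ± 0.19, SE, n = 3 per group; edgeR adjusted p = 0.000164).

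Mrpl41, another protein particular to the mitochondrial ribosome, was at 16.3, 16.5 and 17.9 CPM with vehicle and at 61.3, 34.6 and 36.7 CPM with AOA. The vehicle libraries were close together, and the AOA library of mouse 1 was well above the other two. The log2 fold change was 1.38 ± 0.22 (adjusted p = 0.000918, edgeR), and 1.08 without that library.

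Mrpl17, the counterpart of bacterial L17, was at 11.6, 20.2 and 12.7 CPM with vehicle and at 47.0, 33.6 and 33.1 CPM with AOA, a log2 fold change of 1.35 ± 0.24 (edgeR adjusted p = 0.00148). Its deposited length of 6712 bases was the largest of all members. Mrpl28, the counterpart of bacterial L28, was at 23.1, 25.9 and 25.8 CPM with vehicle and at 84.9, 54.3 and 49.6 CPM with AOA, a change of 1.33 ± 0.21 (adjusted p = 0.000746). In both genes the lowest AOA library exceeded the highest vehicle library. Mrpl51, a mitochondria-specific protein, rose by 1.30 ± 0.18 (adjusted p = 0.000401), from 17.3 to 25.9 CPM with vehicle to 49.1 to 61.1 CPM with AOA.

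Mrpl12 forms the stalk of the large subunit that recruits translation factors, and it also binds the mitochondrial RNA polymerase. It was among the more abundant members that rose, at 49.3, 53.4 and 50.5 CPM with vehicle and 131, 94.1 and 90.5 CPM with AOA. The change was 1.04 ± 0.16 on the log2 scale (adjusted p = 0.000776, edgeR). Of the other stalk-base proteins, Mrpl11 rose by 1.11 and Mrpl10, which anchors Mrpl12, had a value of 0.16 and was not called.

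The proteins around the exit of the peptide tunnel did not move as 1 group. Mrpl22, Mrpl23 and Mrpl47 rose by 0.58, 0.82 and 0.93 on the log2 scale. The call of Mrpl22 was lost without vehicle mouse 3, and that of Mrpl23 without AOA mouse 1 or AOA mouse 3. Mrpl24 was at 102, 108 and 112 CPM with vehicle and at 107, 77.8 and 74.8 CPM with AOA, a value of -0.31 ± 0.16 that did not pass the test (adjusted p = 0.132), although it did without the AOA library of mouse 1 (-0.49, adjusted p = 0.00838). Mrpl45, which contacts the inner membrane, was at 75.8 to 95.8 CPM with vehicle and at 80.04 to 90.5 CPM with AOA. Its groups overlapped, with a value of 0.03 ± 0.14 (adjusted p = 0.844).

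Mrpl58, a peptidyl-tRNA hydrolase that frees stalled mitochondrial ribosomes, also showed overlapping groups. It was at 68.0, 41.7 and 71.8 CPM with vehicle and at 77.6, 52.2 and 55.8 CPM with AOA, a log2 value of 0.03 ± 0.23 (edgeR adjusted p = 0.911).

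Mrpl9, the counterpart of bacterial L9, was the only member that fell. It had the highest CPM of all members in each vehicle library, at 202, 126 and 205 CPM in mice 1, 2 and 3, and it was at 98.2, 84.4 and 90.8 CPM with AOA. All AOA libraries lay below all vehicle libraries, and the level was lower in each mouse. The change was -0.96 ± 0.19 on the log2 scale, or 1.95-fold lower (edgeR adjusted p = 0.00286), and -1.02 without the AOA library of mouse 1. It was called lower in all 15 alternative fits.

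Per length, the highest of the large-subunit genes were Mrpl30 (165 CPM per kb, mean of all libraries), Mrpl33 (163) and Mrpl24 (102), and none of these was called. Mrpl30 was at 101 to 140 CPM with vehicle and at 90.2 to 126 CPM with AOA, with a value of -0.23 ± 0.17 (adjusted p = 0.301, edgeR). Mrpl33, a small protein with a bacterial counterpart, was at 60.0, 67.1 and 67.1 CPM with vehicle and at 119, 69.6 and 74.0 CPM with AOA. Its rise was present mainly in mouse 1, and the value of 0.43 ± 0.20 (adjusted p = 0.0996) was 0.15 without that AOA library. Mrpl33 was called higher without the AOA library of mouse 2, and with the trend against gene length removed from each library.

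In the small subunit 19 of 29 genes rose and 10 did not pass the test, with a median log2 fold change of 0.66 (0.93, 0.48 and 0.45 in mice 1, 2 and 3, SD 0.27). By edgeR 0 genes of the small subunit were lower, also at an unadjusted p under 0.05 and by DESeq2 and limma voom. Mrps28, the counterpart of bacterial S1, had the largest rise of all members. It was at 5.32, 8.24 and 5.32 CPM with vehicle and at 27.3, 18.1 and 18.8 CPM with AOA, so every AOA library was more than 2-fold above every vehicle library. The rise was 3.40-fold (log2 1.76 ± 0.25, SE, n = 3 per group; edgeR adjusted p = 0.000459), and 1.55 on the log2 scale without the AOA library of mouse 1.

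Mrps22 is a mitochondria-specific protein in which inherited mutations cause respiratory chain deficiency. Its level was 7.14, 10.2 and 8.96 CPM with vehicle and 35.4, 23.3 and 22.0 CPM with AOA, and the groups were again far apart. The change was 1.61 ± 0.23 (adjusted p = 0.000492, edgeR).

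Mrps2 and Mrps14 are counterparts of bacterial S2 and S14. Mrps2 was at 12.8, 19.7 and 16.4 CPM with vehicle and at 36.6, 38.7 and 34.3 CPM with AOA, a change of 1.16 ± 0.18 (edgeR adjusted p = 0.000657). In this gene the AOA library of mouse 1 was not the highest, and the value without it was 1.17. Mrps14 rose by 1.15 ± 0.17 (adjusted p = 0.000522), from 26.9 to 31.4 CPM to 55.5 to 79.1 CPM.

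The genome encodes 3 proteins related to bacterial S18, which take different places in the mitoribosome, and all 3 genes rose. Mrps18c was at 21.4, 24.6 and 24.97 CPM with vehicle and at 62.4, 42.9 and 41.3 CPM with AOA (log2 fold change 1.05 ± 0.18, edgeR adjusted p = 0.00143). Mrps18a rose by 0.98 ± 0.17 and Mrps18b by 0.96 ± 0.21. The 3 changes differed by less than their standard errors.

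Mrps12, which sits at the decoding center, was at 10.7, 14.01 and 11.9 CPM with vehicle and at 25.2, 15.3 and 18.6 CPM with AOA. The lowest AOA library, that of mouse 2, was only slightly above the highest vehicle library, that of the same mouse. The rise of 0.69 ± 0.22 (edgeR adjusted p = 0.0237) did not pass without any of 4 of the 6 libraries, with adjusted p of 0.0747 and 0.0583 without vehicle mice 1 and 3 and of 0.0750 and 0.0518 without AOA mice 1 and 3.

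Mrps36 was named as a small-subunit protein and is also known as a subunit of the 2-oxoglutarate dehydrogenase complex. It was at 7.80 to 8.49 CPM with vehicle and at 10.8 to 15.5 CPM with AOA. The rise of 0.62 ± 0.20 (adjusted p = 0.0287, edgeR) was lost without vehicle mouse 1 (adjusted p = 0.0577), vehicle mouse 3 (0.0659) or AOA mouse 1 (0.0674). Mrps30, which structures place in the large subunit like Mrps18a, rose by 0.56 ± 0.14 (adjusted p = 0.00801).

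The highest small-subunit genes per length were Mrps16 (133 CPM per kb), Mrps21 (101) and Mrps18c (72.3). Mrps16 was at 72.5, 68.2 and 82.6 CPM with vehicle and at 99.4, 65.3 and 62.4 CPM with AOA. It was above its vehicle library in mouse 1 and below it in mice 2 and 3, with a value of 0.02 ± 0.19 (edgeR adjusted p = 0.922). Mrps21 rose by 0.75 ± 0.18 (adjusted p = 0.00676).

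**Figure D2:**
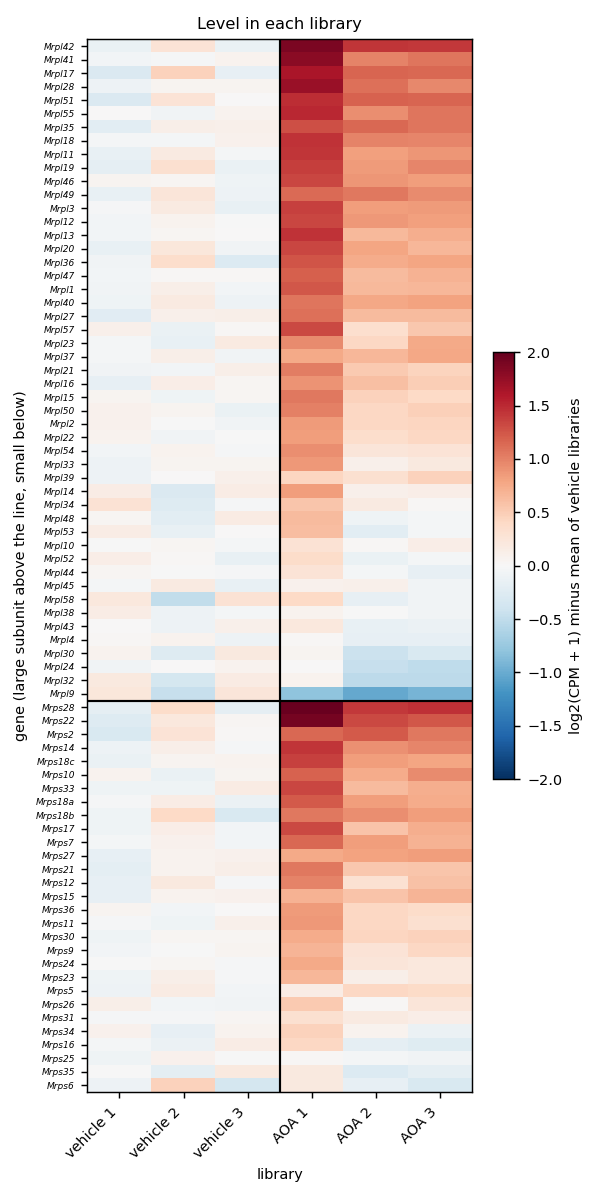
Level of each member in each of the 6 libraries, as log2(CPM + 1) minus the mean of the vehicle libraries, in rows ordered by log2 fold change (large subunit above the line, small below) and with libraries in columns. Red is higher and blue is lower than vehicle; the AOA library of mouse 1 is the highest of the AOA libraries in 72 of 78 rows.

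Over all members, the log2 fold changes of those that rose ran from 0.42 to 1.76, and 22 of the 78 (28.2%) differed at least 2-fold, close to the 27.2% of all tested genes. Those not called lay between -0.32 and 0.44. Members overlapping another counted gene, whose reads the counting could split, numbered 20, and 11 of them rose against 40 of the 58 without such an overlap. As a description over the 6 libraries, the profiles most like the mean profile of the members were those of Mrpl47, Mrpl13 (Pearson r = 0.998 each) and Mrpl1 (0.997). These genes rose by 0.93, 1.01 and 0.91.

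To ask whether the subunits differed, their genes were set side by side. The share that rose was 65.3% in the large and 65.5% in the small subunit, against 26.2% of all tested genes. The medians differed by 0.05 (large minus small). Taken within mice 1, 2 and 3, the median of the large subunit was higher by 0.16, 0.01 and 0.09 (mean 0.09, SD 0.07), so the difference was about as large as its spread. With the trend against gene length removed from each library it was 0.14. Counting Mrps30 and Mrps18a with the large subunit gave 34 and 17 genes higher and left the difference of the medians at 0.05.

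Summed over genes, the large-subunit members were at 1818, 1767 and 1857 CPM with vehicle and at 3072, 2225 and 2241 CPM with AOA. The small-subunit members were at 820, 895 and 872 CPM with vehicle and at 1472, 1124 and 1130 CPM with AOA. In both, every AOA library was above every vehicle library. The ratio of the large to the small sum was 2.22, 1.97 and 2.13 with vehicle and 2.09, 1.98 and 1.98 with AOA, and these ranges overlapped. Together the members rose from 0.268% to 0.375% of the library.

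**Figure D3:**
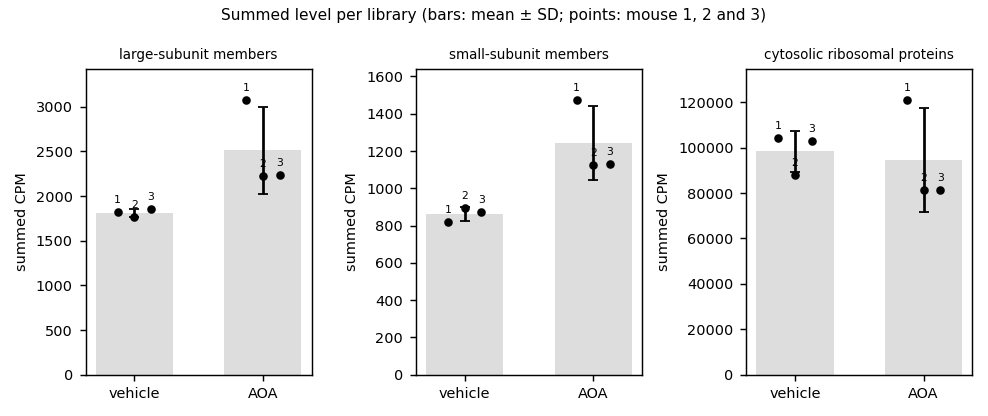
Summed level (CPM, from 0) of the large-subunit members, the small-subunit members and the cytosolic ribosomal protein genes with vehicle and with AOA. Points are libraries numbered by mouse, and bars with error bars are the mean ± SD (n = 3); the AOA points of both mitochondrial sums lie above all vehicle points, whereas those of the cytosolic sum overlap with vehicle.

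The members that are counterparts of bacterial ribosomal proteins and those that are particular to mitochondria were also described separately, a division made after the values were seen. Of 46 members with a bacterial counterpart 33 rose and 1 fell, with a median of 0.78 (1.19, 0.53 and 0.62 in mice 1, 2 and 3). Of 31 mitochondria-specific members 17 rose, with a median of 0.54 (0.82, 0.33 and 0.38). The shares higher were thus 71.7% and 54.8%, against 26.2% of all tested genes. Mrps36, which also rose, was put in neither class. The median of the members with a bacterial counterpart was the higher in each mouse, by 0.37, 0.20 and 0.24 (mean 0.27, SD 0.09, n = 3), and the difference was not tested.

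Members at higher levels had smaller median changes, a difference that was not tested. The members were divided into equal groups of 26 by mean level. In the lowest group (7.14 to 26.4 CPM) 19 of 26 rose, with a median of 0.83. In the middle group (27.2 to 43.9 CPM) 19 of 26 rose, with a median of 0.73, and in the highest group (44.1 to 134 CPM) 13 of 26 rose and Mrpl9 fell, with a median of 0.45. Other tested genes in the same ranges had medians of -0.02, 0.06 and 0.07, and 24.9%, 32.4% and 32.0% of them were higher. Across members, Pearson's r between the log2 fold change and the log2 mean level was -0.37, as a description of 78 genes that share the same libraries.

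Because the members are short and the AOA library of mouse 1 was read higher at short genes, members were compared with other tested genes of the same length. Under 1000 bases, 18 of 30 members rose (60.0%, median 0.64), against 30.5% of 840 other genes (median 0.14). From 1000 to under 2000 bases, 64.7% of 34 members rose (median 0.65), against 30.2% of 2523 other genes (0.08). From 2000 to under 4000 bases these shares were 77.8% of 9 members (1.11) and 27.7% of 4738 other genes (-0.01). At 4000 bases and over they were 80% of 5 members (0.91) and 19.7% of 3580 other genes (-0.14).

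In every class the median of the members was thus above that of other genes. Without the AOA library of mouse 1 the medians of the members were 0.46, 0.48, 0.88 and 0.68 from the shortest to the longest class, and those of other genes were -0.04, -0.003, -0.01 and -0.09. With the trend against length removed from each library, 33 large-subunit and 20 small-subunit members were higher and 3 were lower. The added lower calls were those of Mrpl24 and Mrpl32.

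**Figure D4:**
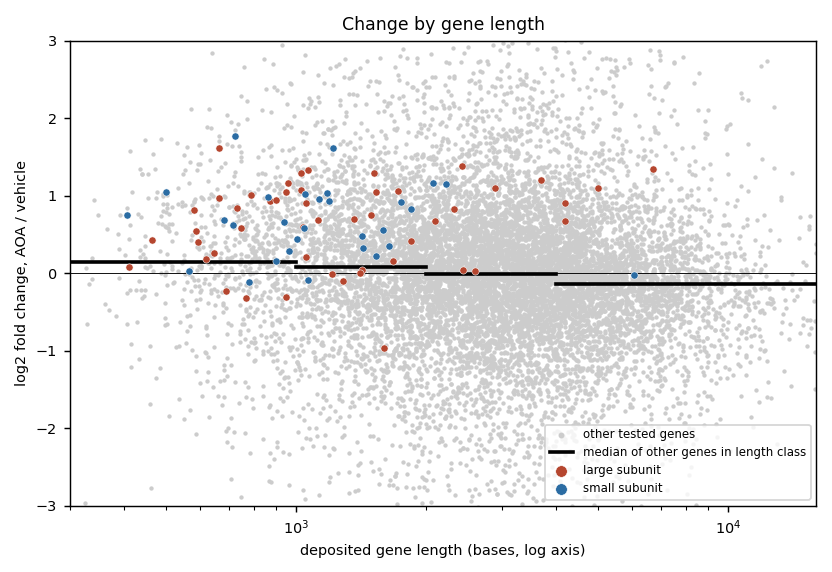
Log2 fold change (AOA / vehicle) against the deposited gene length on a log axis, for large-subunit members (red), small-subunit members (blue) and other tested genes (grey), with 403 other genes outside the axes. Black lines are the medians of other genes in 4 length classes; most members lie above them in each class.

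Of 5 subunits of the mitoribosome with other names 3 rose and 2 did not pass the test. The share higher was 60%, against 26.2% of all tested genes, and the share called was also 60%, against 53.0%. Groups were separate in 60%, against 62.1% of all tested genes. Chchd1 rose by 1.40, Ptcd3 by 0.85 and Gadd45gip1 by 0.52 on the log2 scale. Dap3, a GTP-binding protein of the small subunit, was at -0.15 and Aurkaip1 at 0.12, and neither passed the test. The median was 0.52. The mitochondrial rRNAs and mRNAs themselves were not analysed here.

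Among 27 factors that assemble the mitoribosome 6 rose (22.2%, against 26.2% of all tested genes) and 3 fell (4 with the mouse as a block, which added Ngrn), with a median of 0.23. The share called, 33.3%, was below the 53.0% of all tested genes. Fastkd2, an RNA-binding protein needed for the large subunit, rose by 1.56, the rRNA methyltransferase Mrm3 by 1.46 and Rcc1l by 1.04. Ddx28, an RNA helicase of the large-subunit assembly pathway, fell from 37.2 to 42.9 CPM with vehicle to 18.2 to 21.1 CPM with AOA (log2 -1.04 ± 0.14, edgeR adjusted p = 0.00035). Mterf4 and Rbfa, which act in assembly of the large and the small subunit, had values of -0.54 and -0.45 and were called lower.

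Of 16 factors of mitochondrial translation 6 rose and 1 fell (median 0.23). These are 37.5% higher and 43.8% called, against 26.2% and 53.0% of all tested genes. Lrpprc and Slirp, partners that stabilize mitochondrial mRNAs, rose by 1.28 and 1.04, and the elongation factor Gfm1 by 0.80. Gfm2, which acts in ribosome recycling, had a value of -0.41 and was called lower. Tufm, the abundant elongation factor Tu, was at 0.02 and was not called.

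Of 14 genes that copy mitochondrial DNA, transcribe it or process its transcripts, 5 rose and 1 fell (median 0.25). The share higher was 35.7% and the share called 42.9%, against 26.2% and 53.0% of all tested genes. The transcription elongation factor Tefm rose by 1.37, the DNA-packaging factor Tfam by 0.85, the helicase Supv3l1 by 0.81 and the RNA polymerase Polrmt by 0.60. Polg2, an accessory subunit of the mitochondrial DNA polymerase, was lower, with a value of -0.80.

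Of 9 tested nuclear regulators of mitochondrial genes 2 rose (22.2%, against 26.2% of all tested genes) and 1 fell (median 0.20). The share called was 33.3%, below the 53.0% of all tested genes. Pprc1, a coactivator of the PGC-1 family, rose by 1.37 and Myc by 0.45, whereas the nuclear receptor Esrra fell by 0.75 on the log2 scale. Nrf1, Gabpa, Gabpb1 and Yy1 were not called: Nrf1 was at 0.25, Gabpa at -0.22, Gabpb1 at 0.20 and Yy1 at -0.19.

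Cytosolic ribosomal protein genes, which are also short, were rarely called (6.17%, against 53.0% of all tested genes). Of 81 tested, 4 were higher, 1 was lower (3 with the mouse as a block) and 76 were not called, with a median of -0.06 (0.24, -0.12 and -0.37 in mice 1, 2 and 3). Their sum was 104177, 87980 and 102815 CPM with vehicle and 120827, 81382 and 81552 CPM with AOA, and the groups overlapped. The genes called higher included Rps27l (1.66), Rpl7l1 (1.08) and Rps25 (0.68), and the gene called lower was Rpl29 (-0.49). Rps27l and Rpl7l1 are variants of core ribosomal proteins, but not all genes called higher were such variants.

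**Figure D5:**
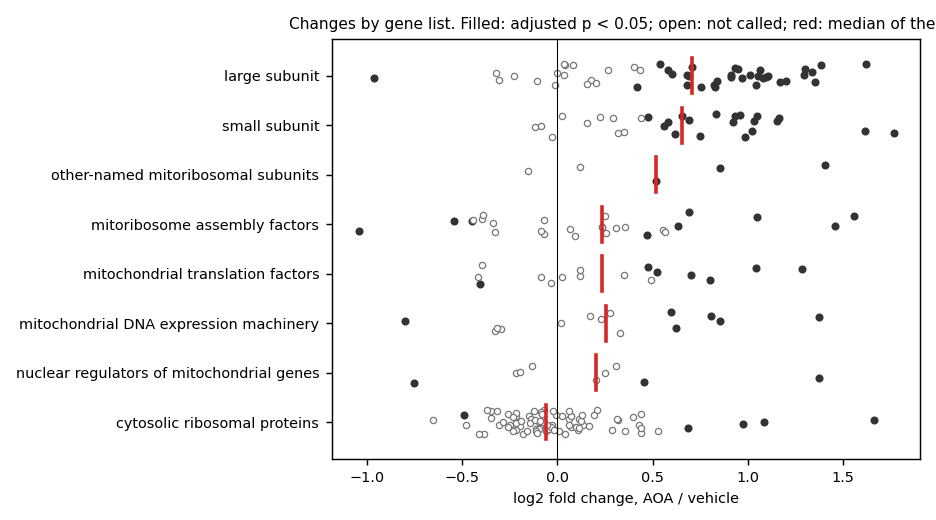
Log2 fold change (AOA / vehicle) of each tested gene in the members of each subunit and in 6 other gene lists. Filled points passed the test, open points did not, and red bars are list medians, which are 0.71 and 0.66 for the subunits, 0.20 to 0.52 for the other mitochondrial lists and -0.06 for cytosolic ribosomal proteins.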

How the data were processed

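RNA was sequenced from CD8+ T cells of 3 mice, each cultured with vehicle and with 0.25 mM AOA (TruSeq Stranded mRNA libraries, paired-end reads). The submitters' processing notes name bcl2fastq, STAR, featureCounts, DESeq2 and build mm10. The authors deposited raw counts of uniquely mapped reads per gene with an Entrez number and a length. The annotation, strand setting and low-count filter behind them are unknown, so reads of overlapping genes may be shared or lost.

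Groups were taken from the treatment label. The counts were tested with edgeR 4.0.16 (R 4.3.3; glmQLFit robust, glmQLFTest, filterByExpr with a minimum count of 10, TMM), two-sided, with treatment as the only term. Levels are CPM over TMM-scaled library sizes. The standard error is the log2 fold change divided by the square root of F. Simulated data for this comparison held 5 sets of 11759 genes, with 200 changed in each. There, 61.9% of 2-fold and 12.9% of 1.5-fold changes were recovered and 7.28% of calls were false. Far more genes were called in the data (53.0%), where the adjusted threshold is therefore easier to reach. The shares recovered may thus not hold for the data. Single genes in 3 against 3 libraries cannot reach an exact permutation p below 0.1, so only the fit over all genes was used.

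The labels give the mouse of each library, so libraries pair by mouse. Deviations from the group means correlated at 0.0868, 0.189 and 0.194 within mice 1, 2 and 3, and a fit with mouse as a block was an alternative. Replicates differed by more than sampling noise. Other alternatives were DESeq2 1.42.0, limma voom (limma 3.58.1), other scalings and filters, a correction for gene length and each library left out. Promoters are from RefSeq (GRCm38.p6, the assembly of mm10).

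The members, gene lists and rules were chosen with earlier results of these data known. Members named were, in each subunit, the 5 called with the largest change in each direction and the 3 highest per length, genes of known role, the Mrps18 genes, and the 3 most like the mean profile. Of each other list up to 3 called genes per direction were named, except 1 cytosolic ribosomal protein gene that is not reported here. Further genes named (stalk, tunnel exit, shared promoters, Mrpl39, Polrmt, Rps25 and genes not called in the other lists) were chosen after their values were seen.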

Additional observations from a re-analysis of the deposited data

How the results depend on the processing

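Of the 52 members called, 44 were called in all 15 alternative fits (43 higher, 1 lower), and no called member was called in the opposite direction. With the replicate block (mouse as a term) the same 52 members were called and 0 others, with 32 large-subunit and 19 small-subunit genes higher and medians of 0.684 and 0.660; it changed no other call among members. With a log2 fold change of at least 1 added, 15 large-subunit and 7 small-subunit genes were higher and 0 large-subunit genes were lower. With the length trend removed, 3 large-subunit genes were lower (3 also with the block), and the large minus small difference was 0.141 (0.137 with the block). Leaving out each library in turn gave 30 to 33 large-subunit and 15 to 20 small-subunit genes higher, 1 to 2 large-subunit genes lower, medians of 0.503 to 0.802 (large) and 0.475 to 0.729 (small), and differences of 0.0289 to 0.112. Counts lost when a library is left out come with fewer samples in the fit.

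Of the 27 members named by the rule, which were the single members compared by value across settings, 3 that were not called changed sign (Mrps16, Mrpl58 and Mrpl45). Mrps16 was at -0.00481 with limma voom, -0.00501 with a minimum of 10 CPM, -0.00421 with the replicate block, -0.0986 with the length trend removed and -0.0966 with that and the block. With each library left out in turn, its value ran from -0.219 (without AOA replicate 1) to 0.151, that of Mrpl58 from -0.161 (without AOA replicate 1) to 0.203, including -0.141 without vehicle replicate 2, and that of Mrpl45 from -0.0154 (without vehicle replicate 3) to 0.169. The cause was not tested. In the simulation, where far fewer genes changed than were called in the data, 12.9% of 1.5-fold changes were recovered. This share may not hold for the data. A member that was not called may still differ.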
